A study of Arabidopsis thaliana with 8 samples.

Results

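Pairs of protein-coding genes that overlap on opposite strands of the chromosome were examined for small RNA. An mRNA locus of the TAIR10 annotation was called paired when its span on chromosomes 1 to 5 overlapped by at least 100 bp with a locus of the opposite strand. The rule used positions only. It found 1001 paired loci among 24859 loci in all, of which 24649 lie on chromosomes 1 to 5. These loci form 505 pairs, in which 993 loci have 1 partner, 7 have 2 and 1 has 3. They were compared with 21816 loci that overlap no other locus, called isolated loci here, while 1832 loci with shorter or same-strand overlaps were left aside.

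Small RNA was sequenced from Arabidopsis thaliana plantlets (Col-0 accession) of 4 genotypes, with 2 biological replicates each and 8 libraries in all. These were WT, urt1-1, xrn4-3 and the double mutant urt1-1 xrn4-3, both alleles being T-DNA insertions. All plantlets were 24 days old and grown in vitro at 22 °C during the 12 h light period and at 18 °C during the 12 h night. RNA of 18 to 30 nt was selected, so that siRNAs, miRNAs and fragments of mRNA decay are all counted. The libraries held 6045353 to 30064224 counted reads. The 2 xrn4-3 libraries differed from each other at many of the loci described, so counts of raised loci in xrn4-3 are given with and without each, and values of single loci where they moved. Replicates in this study are plants of a genotype from separate growths. It is not said whether libraries of the same number were grown together.

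URT1 is a terminal uridylyltransferase (TUTase) that adds uridines to the shortened poly(A) tails of mRNAs. XRN4 is the cytosolic exoribonuclease that degrades uncapped mRNAs from their 5′ end. Transcripts of an overlapping pair are complementary to each other along the stretch where exons of both coincide. Annealing of such transcripts gives double-stranded RNA, a substrate of Dicer-like enzymes, and siRNAs from overlapping genes (nat-siRNAs) are known in Arabidopsis, the SRO5 and P5CDH pair under salt stress being the best known case.

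Most pairs met at their 3′ ends. Tail-to-tail pairs numbered 418, with a median overlap of 163.5 bp. Head-to-head pairs, which meet at their 5′ ends, numbered 40 with a median overlap of 323.5 bp. In the other 47 pairs, called nested, 1 locus lies wholly within the span of the other, with a median overlap of 736 bp. Over all pairs the overlap ranged from 100 to 3250 bp with a median of 192 bp. In the RefSeq gene models of TAIR10.1, over 50% of the overlap was exon of both partners in 435 of the 505 pairs, and 34 pairs shared no exonic base. In 10 of the 47 nested pairs the inner locus shared no exonic base with the outer one.

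The counts were made without regard to strand. The 52 pairs of loci with identical spans had equal counts throughout, but none lies on opposite strands, so they do not bear on this. In all 47 nested pairs, on opposite strands, the inner locus had no more reads than the outer one in each of the 8 libraries. A read in the overlap therefore counts at both partners and cannot be assigned to a strand. Partners are thus not independent of each other, and sense and antisense small RNA cannot be told apart. The counts still set a limit: reads of a locus in excess of its partner's reads must lie outside the overlap. In the nested pairs, the reads of the outer locus minus those of the inner locus are the reads wholly outside the shared stretch. Reads across its edge count with the inner locus.

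Stretches from 5 pairs are shown because the pairs carried the largest changes or the highest WT levels described below. They were read from TAIR10.1, whose chromosomes 1 to 5 carry the TAIR10 sequence, and were restricted to bases that code in the named locus and are no untranslated region of the partner. Capitals mark bases that are coding in both partners, on opposite strands, in the RefSeq models. Each runs 5′ to 3′ on the strand of the named locus.
AT2G36030 within AT2G36026, chr2:15127559-15127771, minus strand: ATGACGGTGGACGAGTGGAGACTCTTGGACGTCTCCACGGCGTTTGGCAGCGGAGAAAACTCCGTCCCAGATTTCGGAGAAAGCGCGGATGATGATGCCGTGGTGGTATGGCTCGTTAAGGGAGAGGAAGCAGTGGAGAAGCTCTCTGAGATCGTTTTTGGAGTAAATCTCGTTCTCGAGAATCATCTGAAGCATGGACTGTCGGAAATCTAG
RTFL3 (AT1G07490) within AT1G07485, chr1:2301643-2301732, minus strand: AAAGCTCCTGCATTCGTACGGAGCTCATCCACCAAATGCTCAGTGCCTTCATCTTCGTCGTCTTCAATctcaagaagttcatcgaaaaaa
GTE2 (AT5G10550) overlapping AT5G10540, chr5:3334138-3334227, minus strand: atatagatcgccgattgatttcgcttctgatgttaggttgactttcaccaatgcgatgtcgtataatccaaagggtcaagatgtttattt
CYP81F4 (AT4G37410) overlapping AT4G37409, chr4:17591499-17591588, plus strand: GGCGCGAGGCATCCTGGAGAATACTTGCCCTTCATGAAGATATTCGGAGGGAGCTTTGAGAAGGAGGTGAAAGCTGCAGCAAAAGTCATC
AT2G16020 within AT2G16018, chr2:6973392-6973481, plus strand: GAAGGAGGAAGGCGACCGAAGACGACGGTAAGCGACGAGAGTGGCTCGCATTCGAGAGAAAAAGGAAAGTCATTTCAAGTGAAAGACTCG
All 213 bases of AT2G36030 are coding in both partners. Of the 90 bases shown for GTE2 none is, since they fall outside the exons of AT5G10540.

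In WT, paired loci held about as much small RNA per length as isolated loci. Levels are given as counts scaled to library size with TMM factors (CPM), divided by the span in kb. The median over paired loci was 2.09 and 2.04 CPM per kb in the WT libraries, and that over isolated loci was 1.96 and 2.08 CPM per kb. The ratio of these medians was 1.07 and 0.984, a mean of 1.02 ± 0.058 (SD, n = 2), so that the sign of the difference changed between replicates. The ratio was 1.05 ± 0.033 in urt1-1, 1.05 ± 0.017 in xrn4-3 and 1.04 ± 0.028 in urt1-1 xrn4-3 (SD, n = 2 each). The mutants overlapped with WT in this ratio (exact two-sided permutation tests, p from 0.667 to 1, where the smallest p that 2 against 2 libraries allow is 0.333).

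**Figure D1:**
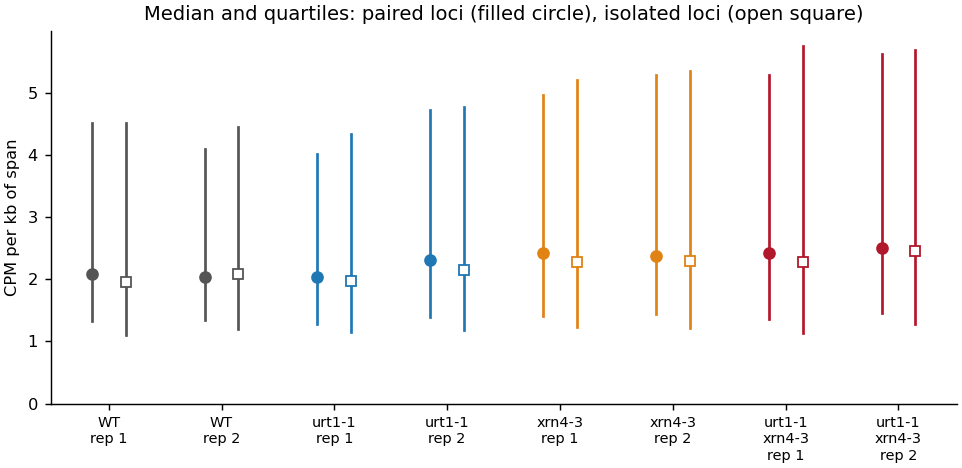
Small RNA level per library. Points are the medians over 1001 paired loci (filled circles) and 21816 isolated loci (open squares) in CPM per kb of span, and lines join the lower and upper quartiles; the 2 kinds of loci have medians between 1.96 and 2.51 in all 8 libraries.

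The medians of both kinds of loci were higher in the 4 libraries without XRN4. The median level of paired loci was 2.42 and 2.38 CPM per kb in xrn4-3 and 2.42 and 2.51 CPM per kb in the double mutant. All of these lay above both WT values (exact two-sided permutation test, p = 0.333 for each genotype), and isolated loci likewise went from 1.96 and 2.08 in WT to 2.28 and 2.45 CPM per kb in the double mutant. Paired loci took 3.51 and 3.72% of the counts summed over loci of chromosomes 1 to 5 in WT and 3.54 and 4.24% in urt1-1 xrn4-3 (exact two-sided permutation test, p = 0.667). A read in an overlap enters this sum at both partners, so these are not shares of single reads. Paired loci make up 4.10% of the summed span of the loci of chromosomes 1 to 5. The reads at paired loci were unevenly spread: AT2G19060 alone, whose reads lie almost wholly outside its overlap with SHT (mean of 77394 reads per library against 25.6 at SHT), held between 5.64 and 32.5% of them.

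The double mutant had more small RNA than WT at 83 of the 999 paired loci that could be tested (8.31%), among them GTE2 and AT5G10540, DGAT3, CYP81F4, RTFL3 and EBF2. Over all 24722 loci tested, 10% were raised, and over isolated loci 2210 of 21682 (10.2%). The calls are those of the likelihood ratio test of edgeR at an adjusted p of 0.05. Paired loci were thus raised no more often than the background. The count rests on few libraries: it was 53 and 38 without the first or second WT library and 45 and 67 without the first or second library of the double mutant. The stricter quasi-likelihood version of the test called 59 paired loci (5.91%) beside 7.31% of all loci. The share among paired loci was below that among isolated loci in all 13 fits tried, from 3.80 to 10.8% against 5.39 to 11.9%. It depended on the overlap limit: with at least 200 bp 61 of 488 loci were raised (12.5%), above the background, and with at least 1 bp 206 of 2613 (7.88%). These loci are not independent, since the same reads can raise both partners of a long overlap. Both were raised in 9 of 20 raised pairs sharing over 75% of the shorter span, and in 3 of 33 sharing under 25%. The median change was 0.10 on the log2 scale for paired loci and 0.01 for all loci.

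The shares differed below the highest quartile of level. All loci were ranked into quartiles by their mean level over all 8 libraries. Since the double mutant libraries count in this mean, a raised locus tends to rank higher. Of paired loci 1.90, 6.09, 9.78 and 15.02% were raised from the lowest to the highest quartile. For isolated loci the shares were 3.96, 8.56, 13.5 and 15.01%. Median read numbers were alike, with 68.25 mean reads per library for paired and 66 for isolated loci. On both sides of the 100 bp limit, loci with a longest opposite-strand overlap of 50 to 99 bp were raised in 45 of 704 cases (6.39%) and those with 100 to 149 bp in 17 of 357 (4.76%).

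Loci of the 3 arrangements differed in how many were raised in the double mutant. Among tail-to-tail loci 56 of 834 were raised (6.71%), among head-to-head loci 9 of 80 (11.2%) and among loci of nested pairs 18 of 91 (19.8%), beside 10% of all loci. Within nested pairs the inner loci were raised in 11 of 47 cases (23.4%) and the outer loci in 7 of 44 (15.9%). In xrn4-3 the order was similar, with 27 of 834 tail-to-tail loci (3.24%), 4 of 80 head-to-head loci (5%) and 9 of 91 loci of nested pairs (9.89%). These shares are descriptions, since partners share reads: the 18 raised loci of nested pairs belong to 12 pairs, in 6 of which both were raised. In the double mutant the 9 head-to-head loci belong to 7 of 40 pairs, with both raised in 2. The 56 tail-to-tail loci belong to 48 pairs, with both raised in 8. Outer loci of nested pairs had more reads than the rest, with a median of 178.75 per library, whereas inner loci had fewer, with 39.25.

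**Figure D2:**
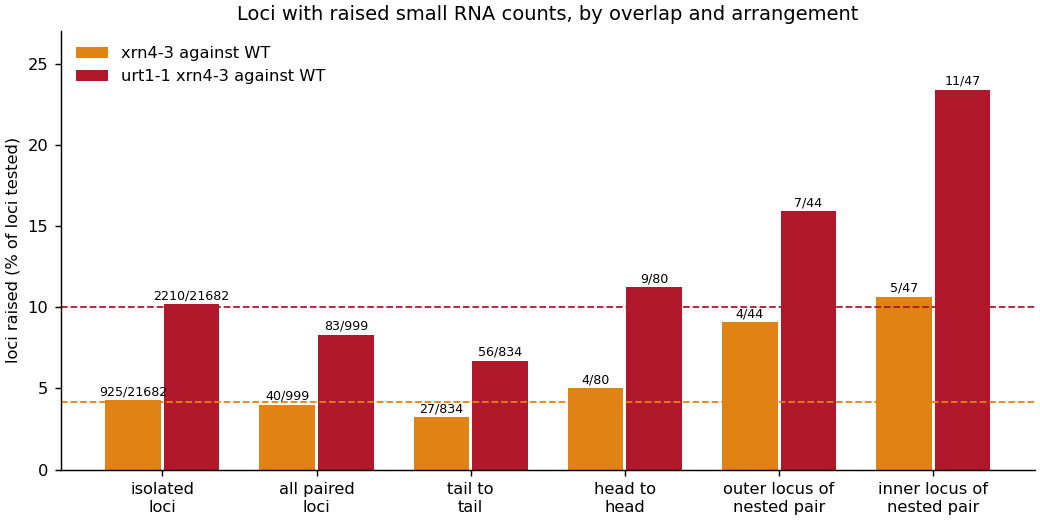
Share of tested loci with raised small RNA in xrn4-3 (orange) and urt1-1 xrn4-3 (red) against WT. Bars are percent of loci called by the likelihood ratio test, the numbers above them give raised over tested loci, and dashed lines mark the share over all 24722 loci (4.19 and 10%); tail-to-tail loci lie below these lines and inner loci of nested pairs above them.

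Nested pairs allow the shared stretch to be separated from the rest of the same locus. In 44 of them at least 129 bp of the outer locus lie outside the inner one. The median log2 ratio of the read density in the inner stretch to that in the rest of the outer locus was -0.26 and -0.04 in the WT libraries and -0.12 and -0.27 in urt1-1. It was 0.09 and 0.48 in xrn4-3 and 0.58 and 0.71 in urt1-1 xrn4-3. These medians were higher in the double mutant than in WT by 0.79 on the log2 scale, and its libraries lay above all 4 of WT and urt1-1 (exact two-sided permutation test against WT, p = 0.333, the smallest possible). Pair by pair, the ratio was higher in the double mutant than in WT in 32 of the 44 pairs, with a median difference of 0.53. It was higher than in WT in 28 pairs in xrn4-3 (0.17) and in 24 in urt1-1 (0.07). In the double mutant it was higher in 9 of the 10 pairs with a raised inner locus (2.59). Of the other 34 it was higher in 23 (0.33), a split made by the change itself. It was higher in 18 of the 26 pairs that overlap mostly by exons of both partners, with a median difference of 0.71, and in 14 of the other 18, with 0.48. Inner loci were taken out singly, so the rest of an outer locus with several inner loci can hold another shared stretch. With only outer loci that hold 1 inner locus, the difference of the medians was 0.66. The comparison within nested pairs was chosen after the data had been seen, and isolated loci offer no such inner stretch for comparison.

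**Figure D3:**
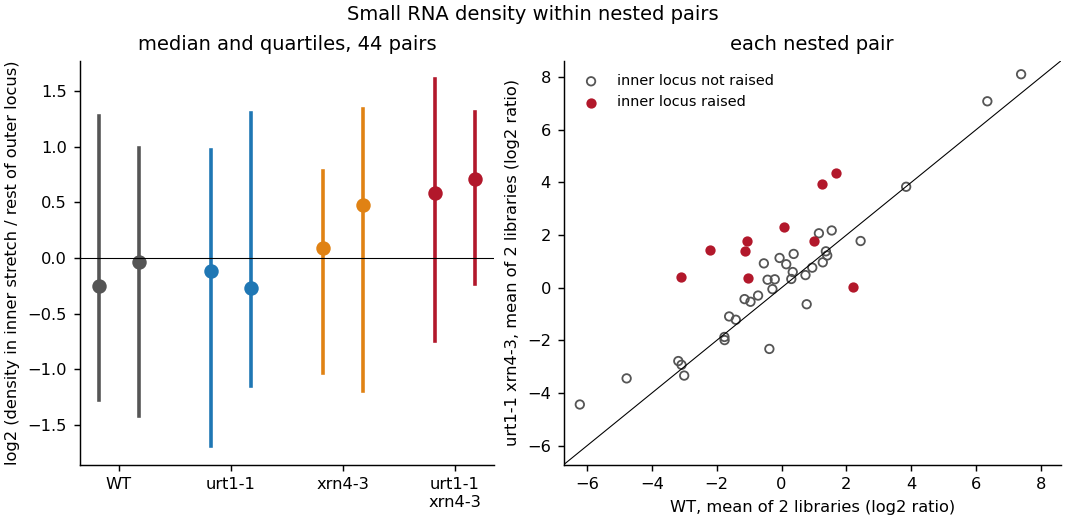
Read density within the 44 nested pairs. On the left, points are the median and lines the quartiles over pairs of the log2 ratio of density (CPM per kb, plus 0.1) in the inner stretch to the rest of the outer locus, 1 per library; on the right each point is a pair, double mutant against WT, with raised inner loci in red, and 32 of 44 points lie above the diagonal.

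Several outer loci were not raised although the gene inside them was. These nested pairs were chosen after their values had been seen. AT5G58150, a leucine-rich repeat receptor-like kinase gene, lies within the span of PHOT2, the gene of a blue-light receptor. Its small RNA was 6.22 and 6.36 CPM in WT, 7.96 and 7.31 in urt1-1, 25.5 and 62.2 in xrn4-3 and 65.9 and 38.7 in urt1-1 xrn4-3. All 4 libraries without XRN4 lay above the 4 others, and the change in the double mutant was 3.05 ± 0.53 (log2 fold change ± SE, adjusted p = 3.88e-06). PHOT2 went from 38.5 and 31.6 to 99.1 and 67.5 CPM, which did not pass the test (1.25 ± 0.49, adjusted p = 0.0909), and 95.3% of its mean gain fell within the stretch of AT5G58150.

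AT3G52710, a gene of unknown function, lies in the span of AT3G52700 and shares no exonic base with it. It had 4.07 and 3.86 CPM in WT, 5.21 and 9.50 in urt1-1, 9.20 and 10.7 in xrn4-3 and 28.9 and 30.3 in the double mutant (2.89 ± 0.43, adjusted p = 1.93e-08). Both double mutant libraries stood above the 6 others. AT3G52700 itself had 126 and 116 CPM in WT and 122 and 88.8 in the double mutant, with no call. AT3G14340 within SRF7, a gene of the STRUBBELIG receptor family, had 1.26 and 0.417 CPM in WT and 6.13 and 4.94 in the double mutant (2.64 ± 0.54, adjusted p = 2.59e-05), while SRF7 had 33.7 and 44.6 against 21.4 and 35.6 CPM. The small RNA of these 2 outer loci thus came mostly from outside the inner gene in every genotype.

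The kelch-repeat F-box gene AT2G44130 (KMD3) lies within AT2G44140, which codes for a C54 peptidase of the autophagy protein family ATG4. KMD proteins direct other proteins to degradation, among them cytokinin response regulators. AT2G44130 had 7.78 and 10.6 CPM in WT, 10.13 and 14.3 in urt1-1, 45.4 and 205 in xrn4-3 and 96.1 and 94.7 in urt1-1 xrn4-3. The double mutant and xrn4-3 libraries did not overlap with those of WT and urt1-1 (3.37 ± 0.64, adjusted p = 3.94e-05). AT2G44140 rose as well (2.78 ± 0.63, adjusted p = 0.000732, but 0.0808 without the first WT library), and 95.9% of its gain lay within the stretch of AT2G44130. A second pair of the same gene families, AT3G59940 (KMD4) and AT3G59950 (also a C54 peptidase), is described below.

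The 8 pairs with the largest rise in the double mutant were chosen by a rule on size and agreement of replicates. At the head was GTE2, a bromodomain protein gene, with AT5G10540, a zincin-like metalloprotease gene, which share 2117 bp tail to tail. GTE2 had 19.1 and 10.2 CPM in WT, 18.8 and 21.2 in urt1-1, 26.0 and 48.95 in xrn4-3 and 6814 and 4293 in urt1-1 xrn4-3. The double mutant libraries stood far above the other 6, among which xrn4-3 was the highest. The change was 8.56 ± 0.58 (adjusted p = 1.50e-22), and AT5G10540 changed by 7.68 ± 0.54 (adjusted p = 1.50e-22). GTE2, which shares most of its span with AT5G10540, held 17.9 and 11.4% of the counts summed over paired loci in the double mutant libraries. It held at most 0.186% in any other library. How many of the GTE2 reads lie in the overlap, and so enter this sum at AT5G10540 as well, is not given by the counts. As the sequence above shows, coding sequence of GTE2 lies opposite bases outside the exons of AT5G10540: 82.5% of the shared stretch is coding in GTE2, but only 4.39% is exon of both.

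Unlike those of GTE2, the reads of the next locus could be placed. DGAT3, which codes for a soluble diacylglycerol acyltransferase of oil synthesis, had nearly all its double mutant reads outside the overlap. It had 15.6 and 12.1 CPM in WT, 13.2 and 15.2 in urt1-1, 17.0 and 15.02 in xrn4-3 and 2522 and 1415 in the double mutant (7.15 ± 0.54, adjusted p = 4.45e-21). Only the double mutant libraries stood apart. Its partner CHR18, a gene of a SNF2-type chromatin remodeling factor, had 4.96 and 5.21 CPM in WT and 17.2 and 9.73 in the double mutant (1.40 ± 0.43, adjusted p = 0.0157). The call of CHR18 was lost without either WT library (adjusted p = 0.190 and 0.144) and without the first library of the double mutant (0.84, adjusted p = 0.329). At least 99.3% of the DGAT3 reads in each double mutant library therefore lay outside the 144 bp shared with CHR18.

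CYP81F4, a cytochrome P450 gene of indole glucosinolate synthesis, and AT4G37409 share 2140 bp and had identical counts in every library. With spans of 2149 and 2143 bp they overlap at both ends, and few bases place them among the head-to-head pairs. Their level was 9.78 and 10.6 CPM in WT, 4.77 and 16.6 in urt1-1, 40.6 and 597 in xrn4-3 and 119 and 780 in urt1-1 xrn4-3. Replicates differed widely in both genotypes without XRN4, the second library being the higher in each, and all 4 lay above WT and urt1-1. The change in the double mutant was 5.46 ± 1.01 (adjusted p = 0.000208), and 3.54 without its second library (adjusted p = 0.0121). The change in xrn4-3 was 4.97 ± 1.01 (adjusted p = 0.00168), but 1.99 with an adjusted p of 0.462 without the second xrn4-3 library, and the quasi-likelihood test did not call it (adjusted p = 0.0773).

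RTFL3, a gene of the small ROTUNDIFOLIA-like peptides that shape organs, lies within AT1G07485. It had 0.667 and 0.417 CPM in WT, 1.01 and 0.913 in urt1-1, 5.55 and 21.2 in xrn4-3 and 17.2 and 14.6 in the double mutant (4.82 ± 0.68, adjusted p = 7.87e-10). The 4 libraries without XRN4 lay above the 4 others. AT1G07485 had nearly the same values, with 0.815 and 0.417 CPM in WT and 17.2 and 14.6 in the double mutant, so that nearly all of its reads lay within the span of RTFL3. AT2G36030 and the ovate family gene AT2G36026, a family of transcriptional repressors, behaved alike: AT2G36030 had 1.33 and 0.104 CPM in WT, 0.289 and 0.913 in urt1-1, 17.4 and 45.9 in xrn4-3 and 22.6 and 8.31 in the double mutant (4.34 ± 0.78, adjusted p = 1.04e-05). With 1 library left out this change ranged from 3.34, without the first library of the double mutant, to 7.08, without the first WT library. AT2G36026 rose by 4.05 ± 0.68 (adjusted p = 2.89e-06), from 2.96 and 1.15 to 51.0 and 18.3 CPM, and 45.2% of its gain fell in the 213 bases shared with AT2G36030.

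In the other 3 pairs the double mutant libraries stood above all 6 others. EBF2, an F-box gene that restrains ethylene signalling, and the ubiquitin-like gene AT5G25340 share 533 bp of their 3′ ends. EBF2 had 21.3 and 46.8 CPM in WT, 27.3 and 66.3 in urt1-1, 37.1 and 65.3 in xrn4-3 and 177 and 251 in urt1-1 xrn4-3 (2.65 ± 0.60, adjusted p = 0.000736, but 0.0946 without the first WT library). AT5G25340 had 4.96 and 6.88 CPM in WT, 11.6 and 23.0 in urt1-1, 7.06 and 28.1 in xrn4-3 and 126 and 157 in the double mutant (4.58 ± 0.63, adjusted p = 2.79e-08). The F-box gene AT3G56470 had 0.741 and 1.04 CPM in WT, 2.75 and 3.11 in urt1-1, 1.89 and 2.07 in xrn4-3 and 17.4 and 20.4 in the double mutant (4.42 ± 0.47, adjusted p = 4.73e-18). Its partner AT3G56480 rose by 2.83 ± 0.44 (adjusted p = 6.74e-08). AT3G20900 and AT3G20898, both of unknown function, rose by 4.60 ± 0.58 (adjusted p = 9.20e-11) and 3.11 ± 0.59 (adjusted p = 3.57e-05). AT3G20900 was raised in xrn4-3 as well (2.56 ± 0.59, adjusted p = 0.00114), where it had 3.66 and 12.2 CPM against 0.963 and 1.77 in WT. That call was lost without the first WT library (adjusted p = 0.125) and without the second xrn4-3 library (1.45, adjusted p = 0.264).

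**Figure D4:**
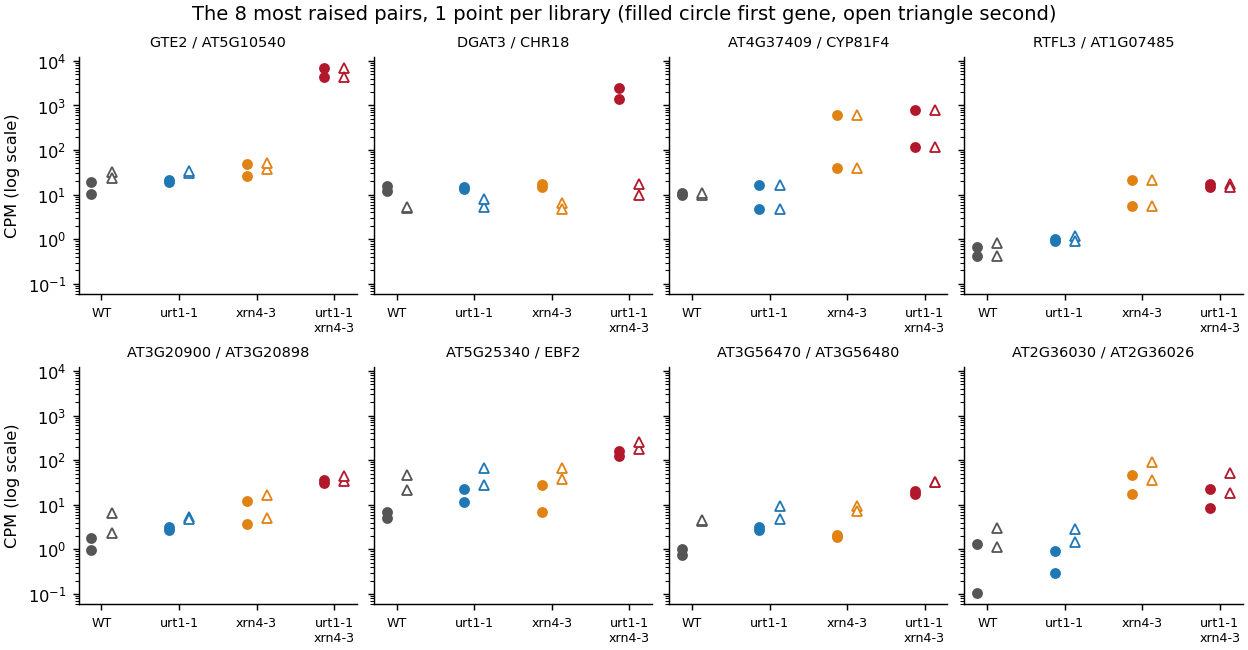
Small RNA of the 8 most raised pairs in CPM on a log axis, 1 point per library, coloured by genotype. Filled circles are the locus with the larger change and open triangles its partner; GTE2 and AT5G10540 rise together to between 4293 and 6969 CPM, whereas DGAT3 rises to 1415 and 2522 CPM and CHR18 to at most 17.2 CPM.

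By the rule above, 66 pairs were raised in the double mutant. The least share of reads outside the overlap, which the excess over the partner gives, had a median of 26.2% in the locus with the larger change, exceeded 50% in 21 pairs and was 0 in 28 pairs. In 10 of these 28 the locus with the larger change is the inner one of a nested pair, so that all its reads lie in the overlap, while in the other 18 the limit leaves the position unknown. KMD4 (AT3G59940) came second to DGAT3. It had 47.9 and 53.7 CPM in WT, 32.0 and 66.7 in urt1-1, 328 and 1189 in xrn4-3 and 617 and 410 in the double mutant (3.34 ± 0.65, adjusted p = 8.87e-05). All libraries without XRN4 stood above the others. At least 96.6 and 95.2% of its reads in the double mutant libraries lay outside the 160 bp shared with AT3G59950, which had 11.2 and 12.5 CPM in WT and 20.9 and 19.7 in the double mutant (0.78 ± 0.52, no call). In xrn4-3 it rose by 3.90 ± 0.65 (adjusted p = 1.45e-05) and AT2G44130 by 3.77 ± 0.64 (adjusted p = 1.37e-05), so that both KMD genes rose in both genotypes without XRN4. Without the second xrn4-3 library these changes were 2.69 (adjusted p = 0.00209) and 2.30 (adjusted p = 0.00146). Of the 21-nt windows of their overlaps, 0.842% (AT2G44130) and 0.714% (AT3G59940) occur elsewhere on chromosomes 1 to 5. Most reads of AT3G59940 in the double mutant lay outside its overlap, so its value does not cover them.

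The ABA-responsive MYB gene MYBR1 (1.79 ± 0.59, adjusted p = 0.0324), the G-patch gene AT1G63980 (1.29 ± 0.43, adjusted p = 0.0340) and AT4G20300, annotated as a putative kinase, (2.02 ± 0.43, adjusted p = 0.000142) followed, with at least 89.4% of their reads outside. Their partners CYP81G1, SPO11-2 and AT4G20290 were not called. MYBR1 and AT1G63980 did not pass the quasi-likelihood test (adjusted p = 0.0934 and 0.0729), and each lost its call without any 1 of 3 of the 4 libraries compared.

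Among the 28 pairs with a limit of 0, the first by locus number were RTFL3 and 4 others. RTFL3 and AT1G45165 are inner loci, and all their reads lie in the overlap. AT1G45165, a gene of unknown function within AT1G45163, had 3.78 and 4.06 CPM in WT, 3.04 and 6.58 in urt1-1, 12.2 and 38.2 in xrn4-3 and 43.3 and 34.6 in the double mutant (3.31 ± 0.57, adjusted p = 3.91e-06). All 4 libraries without XRN4 lay above the others, and 98.9% of the gain of AT1G45163 fell in the shared stretch. The aspartyl protease gene AT1G79720 rose by 2.12 ± 0.48 (adjusted p = 0.000445), but not past the threshold without the second WT (adjusted p = 0.0612) or the first double mutant library (adjusted p = 0.0654). AAE2, an acyl-activating enzyme gene (1.89 ± 0.57, adjusted p = 0.0142), and AT1G17744 (1.16 ± 0.42, adjusted p = 0.0494), which overlaps PGDH of serine synthesis, did not pass the quasi-likelihood test (adjusted p = 0.0594 and 0.102), and lost their calls without any 1 of 3 and any 1 of 4 libraries.

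Lowered small RNA was rare: 10 paired loci (1.00%) were lowered in the double mutant, beside 1.05% of all loci, and the quasi-likelihood test called 2. The strongest change was at AT1G78140, a methyltransferase gene next to UNE2, with -2.87 ± 0.71 (adjusted p = 0.00242). It had 49.6 and 5.52 CPM in WT and between 3.68 and 6.80 CPM in the 6 mutant libraries, so that the change rests on the first WT library: without it the change was -0.55 with an adjusted p of 0.650. Without the first or second library of the double mutant it was -2.94 and -2.90, just short of the threshold (adjusted p = 0.0518 and 0.0501). The count of 10 fell to 1 without the first WT library, and to 3 and 1 without the first or second library of the double mutant. AT5G24490, a gene annotated as a 30S ribosomal protein, had 95.3 and 81.0 CPM in WT, 59.6 and 76.6 in urt1-1, 102 and 39.6 in xrn4-3 and 22.5 and 18.1 in the double mutant (-2.12 ± 0.54, adjusted p = 0.00276). Both double mutant libraries stood below all others, and the call was lost without the second of them (adjusted p = 0.0798). Its partner AT5G24500 stayed between 3.04 and 7.42 CPM. ROC4, a plastid cyclophilin gene (-2.28 ± 0.67, adjusted p = 0.0151), and PSAH-1, a photosystem I subunit gene (-1.79 ± 0.59, adjusted p = 0.0352), did not pass the quasi-likelihood test (adjusted p = 0.0711 and 0.0999), and lost their calls without any 1 of 3 and any 1 of 4 libraries. For ROC4 the change was -1.47 without the first WT library. PSAH-1 and its partner ROPGEF13 were the only pair with both loci lowered, in the fit to all libraries. Only 1 paired locus was lowered in xrn4-3, AT1G78140, beside 0.259% of all loci.

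In xrn4-3, 40 paired loci were raised (4.004%), beside 4.19% of all loci and 4.27% of isolated loci. Without the second xrn4-3 library 21 were raised, without the first 68, and without either WT library 19 or 11. The quasi-likelihood test called 18 (1.80%) beside 1.99% of all loci. With overlaps of at least 200 bp, 33 of 488 loci were raised in xrn4-3 (6.76%), above the share of all loci. Here too the same reads can raise both partners, as in 6 of 9 raised pairs sharing over 75% of the shorter span. The largest changes were at AT2G36030 (5.38 ± 0.78, adjusted p = 2.99e-07), CYP81F4 and RTFL3 (4.58 ± 0.68, adjusted p = 2.92e-08), with their partners. Without the first or second xrn4-3 library the change was 5.90 and 4.50 for AT2G36030 and 5.23 and 3.29 for RTFL3, with calls throughout, and it was 8.12 for AT2G36030 without the first WT library.

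In urt1-1 no paired locus was called by either edgeR test, beside 0.0243% of all loci raised and 0.00404% lowered by the likelihood ratio test. Of the 999 loci tested, 23 had an unadjusted p under 0.05, beside 518 of 24512 loci on chromosomes 1 to 5. The median change was -0.01, with quartiles of -0.25 and 0.23.

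The double mutant was compared with xrn4-3 to see what the loss of URT1 adds where XRN4 is missing. Of the paired loci 13 were raised (1.30%), beside 1.73% of all loci, and 2 were lowered (0.200%), beside 0.311%. These were AT4G12830, with 63.5 and 5.87 CPM in xrn4-3 and 5.52 and 3.18 in the double mutant, and AtPOT1b, with 13.9 and 4.23 against 2.15 and 2.46 CPM. Both calls rest on the first xrn4-3 library, without which the changes were -0.46 (adjusted p = 0.938) and -0.86 (adjusted p = 0.703), and were also lost without either library of the double mutant. The quasi-likelihood test called 4 raised loci (0.400%), beside 0.166%. GTE2 (7.21 ± 0.58, adjusted p = 9.72e-18), DGAT3 (6.94 ± 0.54, adjusted p = 1.45e-19) and AT3G56470 (3.24 ± 0.42, adjusted p = 4.98e-11) led. For 3 paired loci, GTE2, AT5G10540 and DGAT3, the effect of urt1-1 was larger in xrn4-3 than in WT by the likelihood ratio test of this difference, beside 0.0890% of all loci. Without the second xrn4-3 library 25 loci were raised against xrn4-3, without the first 6, and without either library of the double mutant 8.

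Partners changed alike where they shared much of their length. Across the 503 pairs with both loci tested, Pearson's r of the log2 fold changes of the double mutant was 0.56 (Spearman's rho 0.38). For pairs sharing under 25% of the shorter span it was 0.23 (331 pairs), for 25 to 75% it was 0.68 (106 pairs) and for over 75% it was 0.84 (66 pairs). Adjacent opposite-strand loci that do not overlap and lie within 1000 bp gave 0.01 (4329 pairs). These are correlations across genes within the same 8 libraries, and partners share the reads of their overlap. Of 67 pairs with a raised locus both were raised in 16 (23.9%), and of 710 adjacent pairs in 34 (4.79%). The likelihood ratio test called partners in opposite directions in 0 of 503 overlapping pairs, in each of the 4 comparisons. Among adjacent pairs it did so in 11 of 4329 in the double mutant against WT and in 0 in each other comparison. At so small a share these counts do not set overlapping pairs apart, and shared reads work against opposite calls.

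**Figure D5:**
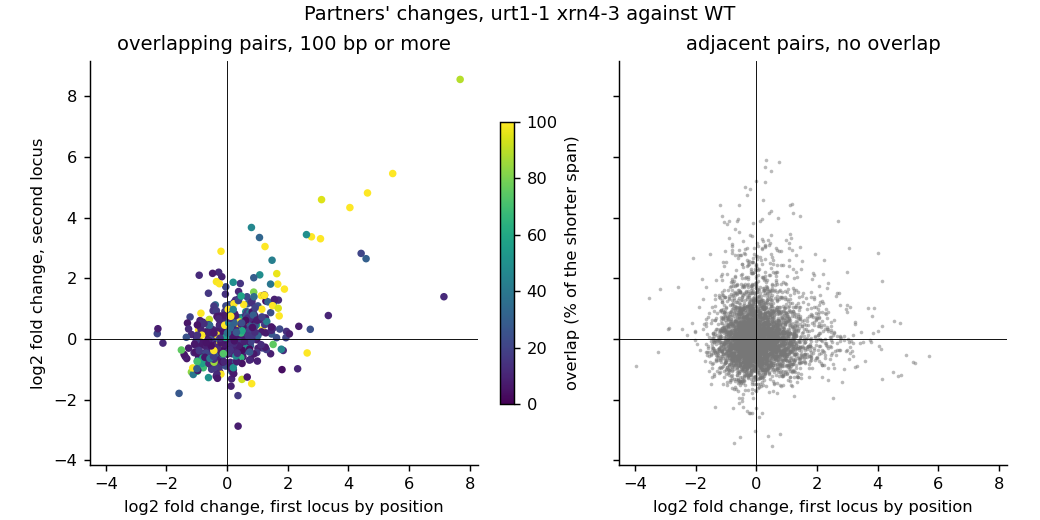
Log2 fold change of urt1-1 xrn4-3 against WT for both loci of a pair, ordered by position. Left, 503 overlapping pairs coloured by the overlap as percent of the shorter span; right, 4329 adjacent opposite-strand pairs without overlap. Pairs with large overlaps lie closer to the diagonal (r 0.84 above 75%) than adjacent pairs (r 0.01), with some exceptions.

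The pairs with the most small RNA in WT at both partners were not called in any comparison. AT1G07476 and AT1G07480, a gene of a transcription factor IIA subunit, share 475 bp. AT1G07476 had 2118 and 3933 CPM in WT, 2500 and 3812 in urt1-1, 2143 and 704 in xrn4-3 and 771 and 2347 in the double mutant. The genotypes overlapped. AT1G07480 had 2124 and 3940 CPM in WT. AT2G16018 had 301 and 253 CPM in WT and holds 2 short opposite-strand genes. AT2G16020 had 104 and 76.3 CPM, and AT2G16019 had 43.7 and 31.8 CPM. AT2G07599, which overlaps the NADH dehydrogenase family gene AT2G07785 by 109 bp, had 186 and 136 CPM, and AT2G07785 had 45.8 and 36.1 CPM. In WT the density in the stretch of AT2G16020 exceeded that in the rest of AT2G16018 by 1.51 and 1.22 on the log2 scale, and in the double mutant by 1.51 and 1.26. LpxC2, a gene of a lipid A-type deacetylase, and AT1G24822 lie in repeated sequence: all 21-nt windows of their overlap occur again on chromosomes 1 to 5, so that their reads cannot be assigned to 1 place. Of the 505 overlaps, 5 consisted mostly of such windows. Only chromosomes 1 to 5 were searched. Copies in the mitochondrial and chloroplast genomes would not show, at AT2G07599 and AT2G07785 or elsewhere.

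Pairs known for nat-siRNAs were not called in any comparison. Their mean WT level was 1.26 CPM per kb at SRO5, 2.00 at P5CDH, 3.35 at GB2 and 1.60 at AT4G35850, beside the medians of 2.09 and 2.04 CPM per kb over paired loci. SRO5, a gene of the RCD1-like protein family, and P5CDH (ALDH12A1), which acts in proline breakdown, share 905 bp. SRO5 had 2.00 and 2.81 CPM in WT, 2.46 and 4.20 in urt1-1, 2.52 and 5.27 in xrn4-3 and 1.61 and 4.09 in the double mutant. P5CDH had 9.19 and 8.02 CPM in WT and 4.98 and 6.67 in the double mutant (-0.56 ± 0.49, no call). Its double mutant values lay below those of WT but within the range of urt1-1, at 4.48 and 8.59 CPM, whereas for SRO5 all genotypes overlapped. GB2 (ATGB2), a small GTPase gene, and the pentatricopeptide gene AT4G35850 share 128 bp, with -0.10 ± 0.37 and -0.06 ± 0.36 in the double mutant. KPL and ARI14 lie 82 bp apart in this annotation and are no members of the set. Small RNA at the loci of 10 genes of the nat-siRNA and small RNA pathways was also tested (DCL1, DCL2, DCL3, DCL4, RDR6, SGS3, NRPD1, HYL1, HEN1 and AGO1). None was called in any comparison by either edgeR test. In urt1-1, xrn4-3 and the double mutant against WT, 1, 0 and 0 had an unadjusted p under 0.05. In the double mutant against xrn4-3 it was 1. The median change in the double mutant was -0.03, beside 0.01 over all loci. These counts do not measure the mRNA or the activity of the pathway genes.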

How the data were processed

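The deposited table holds raw read counts for each mRNA locus and library. According to the methods and labels, the authors mapped adapter-trimmed reads to TAIR10 with Bowtie 1.0.0 and counted them with bedtools 2.17.0 at its default, which ignores strand, and all best alignments of a read were kept, so that repeated sequence can be counted at each copy. The 8 CPM columns of the table were not used. The paired loci and all lists were chosen with earlier results of these data known.

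Overlaps were computed from the positions in the table. Gene models and sequence came from RefSeq on TAIR10.1. Of 24447 loci matched to RefSeq, 3754 had the same start and end. All 24859 loci and 8 libraries were fitted with edgeR 4.0.16 in R 4.3.3 (TMM factors, default filter on low counts, 1 coefficient per genotype, likelihood ratio test), with Benjamini-Hochberg adjustment over 24722 loci. Samples were grouped by the genotype in the labels. The reads per library, from 6045353 to 30064224, and 2 libraries per genotype set the precision. Named pairs were the 8 most raised and 4 most lowered in urt1-1 xrn4-3 and the 3 most raised in each other comparison, past the threshold, with a mean of at least 10 reads and no overlap between libraries of the genotypes, then 5 pairs by WT level, 5 each with the most and the fewest reads outside the overlap, and known nat-siRNA pairs. Of the pairs with the fewest reads outside, 28 were tied at 0 and the first 5 by locus number were taken. Other settings tried were DESeq2 1.42.0, the quasi-likelihood test of edgeR, other size factors and filters, a replicate block, other overlap limits and each library left out. The fit was tested on simulated data, for urt1-1 xrn4-3 against WT. It called 2 of 67 loci changed 2-fold, 45 of 67 changed 4-fold and 66 of 66 changed 8-fold. Changes of 2-fold are thus rarely called, and a locus without a call may still have changed.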

Additional observations from a re-analysis of the deposited data

Results flagged for a closer look

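At 3 paired loci the effect of urt1-1 differed between the xrn4-3 and the WT background, by the likelihood ratio test of the difference itself. For DGAT3 (AT1G48300) the effect was 0.03 in WT and 6.94 in xrn4-3 on the log2 scale, a difference of 6.91 (adjusted p = 3.31e-12). For AT5G10540 the difference was 6.77 (adjusted p = 6.48e-12) and for its partner GTE2 (AT5G10550) 6.77 (adjusted p = 3.27e-10), with effects of 0.21 and 0.44 in WT. The quasi-likelihood test gave an adjusted p of 0.0859 for all 3 and called no locus of the 24722. By the likelihood ratio test 30 loci were called in all, and an unadjusted p under 0.05 was found at 1286 of 24722 loci, 33 of them among the 999 paired loci tested.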

How the results depend on the processing

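The share of raised paired loci in urt1-1 xrn4-3 stayed below that of isolated loci in all 13 fits, but the number called moved. Raised paired loci came to 38 to 67 with 1 library left out and to 206 of 2613 (7.88%) with any overlap of at least 1 bp, beside 61 of 488 (12.5%) with at least 200 bp and 10% of all loci. Lowered loci came to 2 by the quasi-likelihood test, 4 with library totals only, 16 with only the 2 genotypes fitted, 17 with the replicate block, 18 of 2613 (0.689%) and 5 of 488 (1.02%) with overlaps of at least 1 and 200 bp, and 1 to 9 with 1 library left out. Loci raised in xrn4-3 came to 18 by the quasi-likelihood test, 25 with only the 2 genotypes fitted, 84 of 2613 (3.21%) with overlaps of at least 1 bp and 11 to 68 with 1 library left out. Loci raised against xrn4-3 came to 4 by the quasi-likelihood test, 6 with library totals only, 20 with the replicate block, 32 of 2613 (1.22%) with overlaps of at least 1 bp and 6 to 25 with 1 library left out. The block gave 108 raised and 48 raised in xrn4-3. With overlaps of at least 200 bp, 33 of 488 loci were raised in xrn4-3 (6.76%), beside 4.19% of all loci. Against xrn4-3 it was 10 of 488 (2.05%), beside 1.73% of all loci. Partners share reads, so the shares with overlaps of at least 200 bp can count the same reads at both loci. Same-numbered libraries of WT and the double mutant deviated together (r = 0.37), those of xrn4-3 and WT hardly (0.04), and neither the labels nor the methods pair them. The cause of these moves was not tested. The share of summed counts at paired loci in the double mutant minus WT was 0.28 percentage points, -0.30 with overlaps of at least 1 bp, 1.17 without the 10 loci with most reads, and -0.08 to 0.63 with 1 library left out. The WT level ratio stayed between 0.984 and 1.07. The nested difference of medians of 0.79 was 0.51 in pairs that overlap mostly by exons, where the median difference within pairs was 0.71, 0.47 where the inner locus was not raised, a split made by the change itself, 0.73 with 29 bases allowed for reads across the edge and 0.68 to 0.90 with 1 library left out, all chosen after seeing the data. The locus with the larger change in each of the 8 most raised pairs kept its call in every alternative run, while among the partners CHR18 lost it in 4 of 12 and EBF2 in 1. Of the 4 most lowered, each lost it in at least 1. The number of libraries, 2 per genotype, limits what can be detected.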
